A study of Mus musculus with 24 samples.

Results

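The 5 genes of the Ikaros family of zinc finger transcription factors (Ikzf1, Ikzf2, Ikzf3, Ikzf4 and Ikzf5) and 4 genes used as markers of regulatory T cells (Treg; Capg, Ebi3, Klrg1 and Lrrc32) were followed through the activation of CD4+ T cells. They were chosen by name, as the rows of the gene count table whose mouse Ensembl identifier carries one of these symbols, which gave 9 of 54446 genes, all 9 of them among the 15325 genes that passed the filter on low counts. Messenger RNA was sequenced from splenic CD4+ T cells of 6 mice on the C57BL6 background. The 3 wild-type animals (WT, numbered 1, 3 and 4) and 3 Aim2-/- animals (1, 2 and 4) are named as the labels give them, and the Aim2-/- animals are deficient in Aim2, a sensor of cytosolic DNA, with no promoter or Cre line named that would restrict the loss to a cell type. Cells of each mouse were left unstimulated (0 h) or cultured for 3, 6 or 24 h under anti-CD3/CD28, antibodies that trigger the T cell receptor complex together with co-stimulation. This gave 24 libraries in 8 groups of 3. The study kept sex- and age-matched animals, without stating the ages here.

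The total count per library lay between 19715161 and 21627018 counts. After TMM scaling of the library sizes, 3 counts correspond to 0.129 to 0.155 CPM, the count scaled by library size. Aim2 itself, the targeted gene, lay at 21.5, 75.0 and 67.5 CPM at 0 h in WT mice 1, 3 and 4 and at 15.7, 20.1 and 19.001 CPM in Aim2-/- mice 1, 2 and 4. At 24 h the values were 5.57, 34.02 and 38.7 CPM in WT and 6.55, 7.15 and 5.28 CPM in Aim2-/- libraries. The libraries labelled WT 1 thus held Aim2 counts at or slightly above the highest Aim2-/- library up to 6 h (16.99 against at most 15.1 CPM at 3 h and 11.5 against at most 11.4 CPM at 6 h) and within the Aim2-/- range at 24 h, against their label. Whole-gene counts do not show which exons were read. For the genes followed here, differences between the genotypes are therefore given with and without that mouse. Those of other genes and of marker lists are given only with it included. The 8 markers of CD4+ T cells summed to 4665 to 4872 CPM in WT and 4805 to 5066 CPM in Aim2-/- libraries at 0 h, while the 2 Cd8 genes summed to 9.77 to 11.4 and 8.12 to 10.9 CPM.

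Ikaros family proteins bind DNA through zinc fingers near one end and pair with each other through zinc fingers at the other end, and they bring chromatin remodelling and histone deacetylase complexes to their target genes. Ikaros (Ikzf1) and Aiolos (Ikzf3) are known for their part in lymphocyte development and in setting how easily T cells are activated, and Helios (Ikzf2) and Eos (Ikzf4) for their high level in Treg, where they take part in keeping the suppressive programme. Treg restrain immune responses and are defined by the transcription factor FOXP3, and only a minority of splenic CD4+ T cells belong to them.

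The genes spanned a wide range of levels, which are compared here per kilobase of annotated exon. At 0 h in WT cells Ikzf1 had the highest level, 93.3 ± 2.24 CPM per kb (SD, n = 3), followed by Lrrc32 at 31.2 ± 6.92, Capg at 24.5 ± 2.62 and Ikzf3 at 19.5 ± 3.295 CPM per kb. Ikzf4 at 15.7 ± 0.457 and Ikzf2 at 15.4 ± 5.62 CPM per kb lay close together, well within the spread of Ikzf2. Ikzf5 at 6.62 ± 0.4701, Klrg1 at 3.399 ± 1.24 and Ebi3 at 2.55 ± 0.0791 CPM per kb were the lowest. All other levels below are in CPM without division by length and are compared only between samples of a gene.

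**Figure D1:**
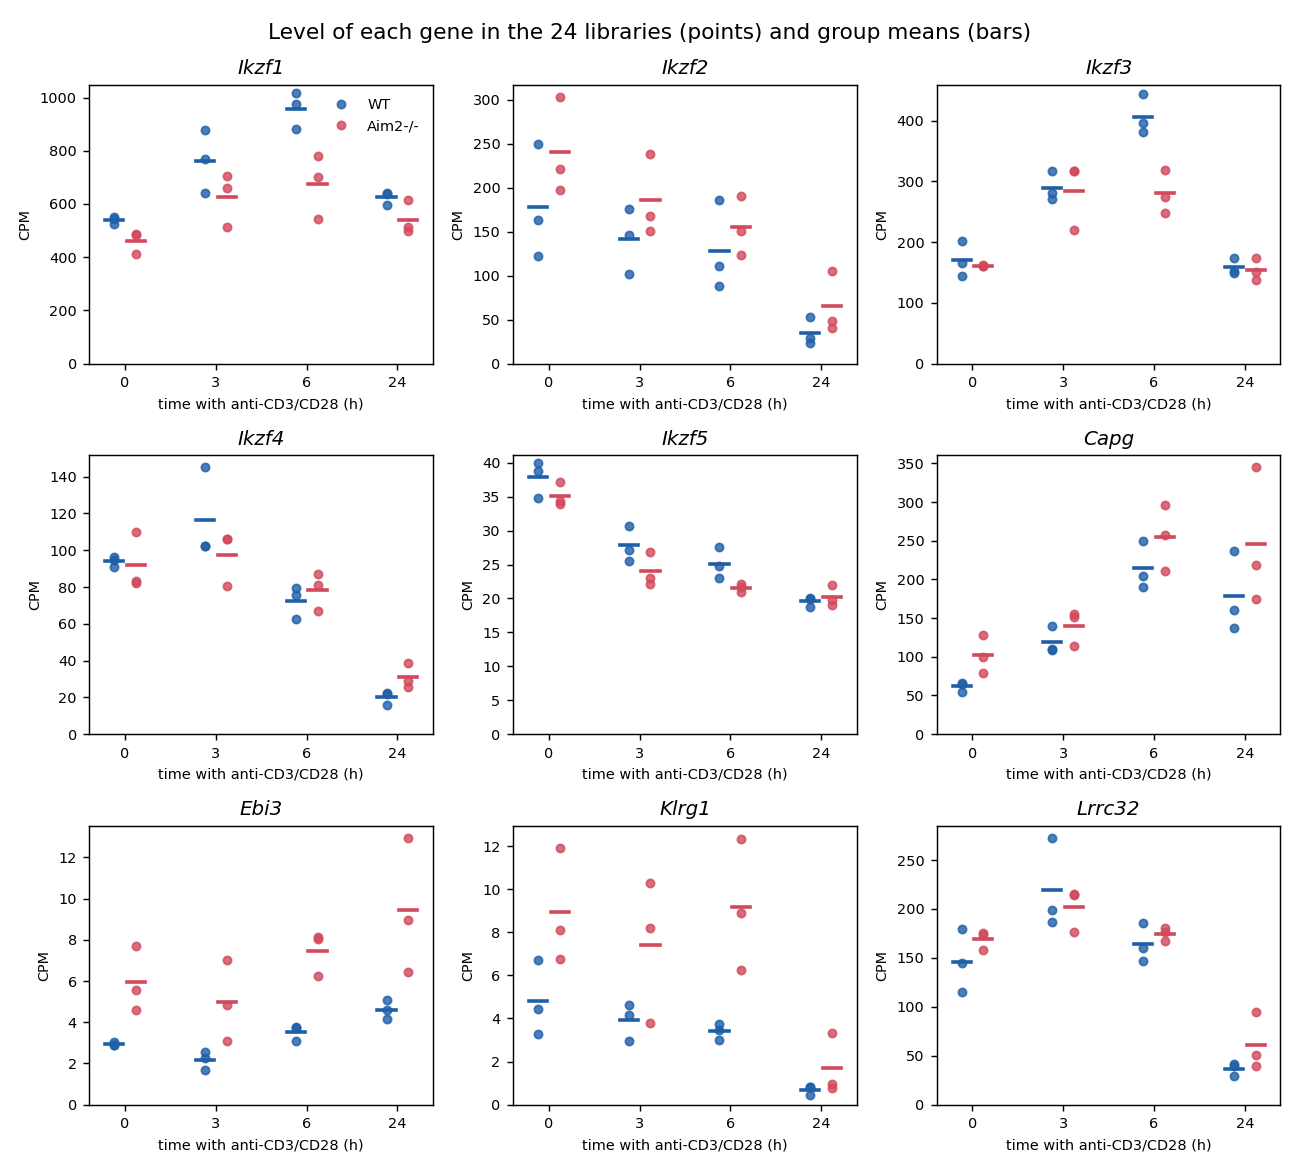
Level of each of the 9 genes in CPM (vertical axes, starting at 0) against time with anti-CD3/CD28 in hours, with a point for each library and a bar at the mean of the 3 libraries of a group, WT in blue and Aim2-/- in red. Ikzf2, Ikzf4, Klrg1 and Lrrc32 were lowest at 24 h in both genotypes, Ikzf1 and Ikzf3 peaked at 3 or 6 h, and Ebi3 was higher in each Aim2-/- library than in any WT library of the same time.

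Promoter sequence is shown for the most abundant gene, Ikzf1, for the least abundant member of its family, Ikzf5, and for the least abundant of all 9, Ebi3, because their windows differ widely in CG content. The RefSeq promoter table (GRCm38.p6) held entries for 4 of the 9 genes, those 3 and Capg, whose window overlaps annotated exons and is not printed. Ikzf1 has 2 entries, of which the first along the chromosome is shown, and both lie within the annotated gene, downstream of its first annotated base. Each run reads 5′ to 3′ on the strand of the gene and holds no base of an annotated exon, with each CG dinucleotide in capitals.
Ikzf1, chr11:11685675-11685924, plus strand: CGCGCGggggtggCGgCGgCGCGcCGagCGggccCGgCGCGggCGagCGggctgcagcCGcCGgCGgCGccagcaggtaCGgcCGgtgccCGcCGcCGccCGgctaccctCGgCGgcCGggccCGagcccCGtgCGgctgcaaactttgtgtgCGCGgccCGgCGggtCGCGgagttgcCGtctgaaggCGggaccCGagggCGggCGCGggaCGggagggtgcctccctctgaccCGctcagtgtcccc
Ikzf5, chr7:131410522-131410728, minus strand: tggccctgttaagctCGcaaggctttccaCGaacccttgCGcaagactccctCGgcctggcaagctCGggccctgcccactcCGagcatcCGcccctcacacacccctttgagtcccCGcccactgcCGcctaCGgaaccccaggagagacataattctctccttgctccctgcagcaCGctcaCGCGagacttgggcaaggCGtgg
Ebi3, chr17:55952373-55952622, plus strand: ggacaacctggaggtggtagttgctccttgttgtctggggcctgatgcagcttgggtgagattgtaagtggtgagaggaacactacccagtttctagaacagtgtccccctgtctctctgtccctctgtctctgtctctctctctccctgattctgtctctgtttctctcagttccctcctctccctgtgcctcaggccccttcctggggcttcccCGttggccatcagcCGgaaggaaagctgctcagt
The Ikzf1 window held 44 CG dinucleotides in 250 bases, a number reached by 0.539% of the 32851 RefSeq windows, whose median was 6. The second Ikzf1 window held 1, a number that 92.1% of windows reach. The Ikzf5 run held 14 in 207 bases, with 18 in its full window (21.7% of windows hold as many), and the Ebi3 window held 2 (81.2% hold as many). The letters TGGGAA, a core that Ikaros proteins recognise, were searched on both strands and were absent from these windows (both of Ikzf1) and present in that of Capg, while 21.6% of all windows hold them. These are counts of letters and do not show whether a factor binds or the DNA is methylated.

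The first question of the design is how activation through CD3 and CD28 changed the genes within each genotype. Ikzf1 and Ikzf3 rose early, with their highest means at 3 or 6 h, and Capg rose and stayed higher. Ebi3 rose late from a low level. Ikzf5 fell by 3 h and stayed lower, and Ikzf2, Ikzf4, Klrg1 and Lrrc32 fell late. Called here means an adjusted p under 0.05 in edgeR's quasi-likelihood test, with Benjamini-Hochberg adjustment across every tested gene, and rose or fell is said of called genes. At 3 h, 4 of 9 genes were called in WT cells, where 32.6% of all tested genes were called, and 3 of 9 in Aim2-/- cells, where 30.7% were. In WT cells 3 of these rose and 1 fell (16.2% of all genes rose and 16.4% fell), and in Aim2-/- cells 2 rose and 1 fell (16.1% and 14.6%). At 6 h, 4 of 9 were called in WT cells against 51.1% of all genes, and 4 of 9 in Aim2-/- cells against 51.2%. In each genotype 3 of them rose and 1 fell, where 26.4% of all genes rose and 24.8% fell in WT cells, and 28.5% rose and 22.7% fell in Aim2-/- cells. At 24 h, 7 of 9 were called in each genotype, where 71.4% of all genes were called in WT and 70.3% in Aim2-/- cells, so that the share of members called was close to that of all genes. In both genotypes 2 members rose by 24 h and 5 fell, where 36.6% of all genes rose and 34.8% fell in WT cells, and 36.8% rose and 33.5% fell in Aim2-/- cells. The median log2 fold change of the 9 genes at 24 h was -0.95 against -0.01 over all tested genes in WT cells and -0.80 against 0.03 in Aim2-/- cells. Between 3 and 6 h, 3 of 9 were called in WT cells (25.7% of all genes) and 1 of 9 in Aim2-/- cells (23.3%). Between 6 and 24 h, 7 of 9 were called in WT cells, where 57.6% of all genes were, and all 7 fell (28.0% of all genes fell). In Aim2-/- cells 5 of 9 were called, where 54.3% of all genes were, and all 5 fell (27.0%). Without WT 1, 4, 4 and 6 of 9 members were called in WT cells at 3, 6 and 24 h, where 22.4%, 43.7% and 64.1% of all genes were. The comparisons with 0 h share the unstimulated libraries of their genotype.

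**Figure D2:**
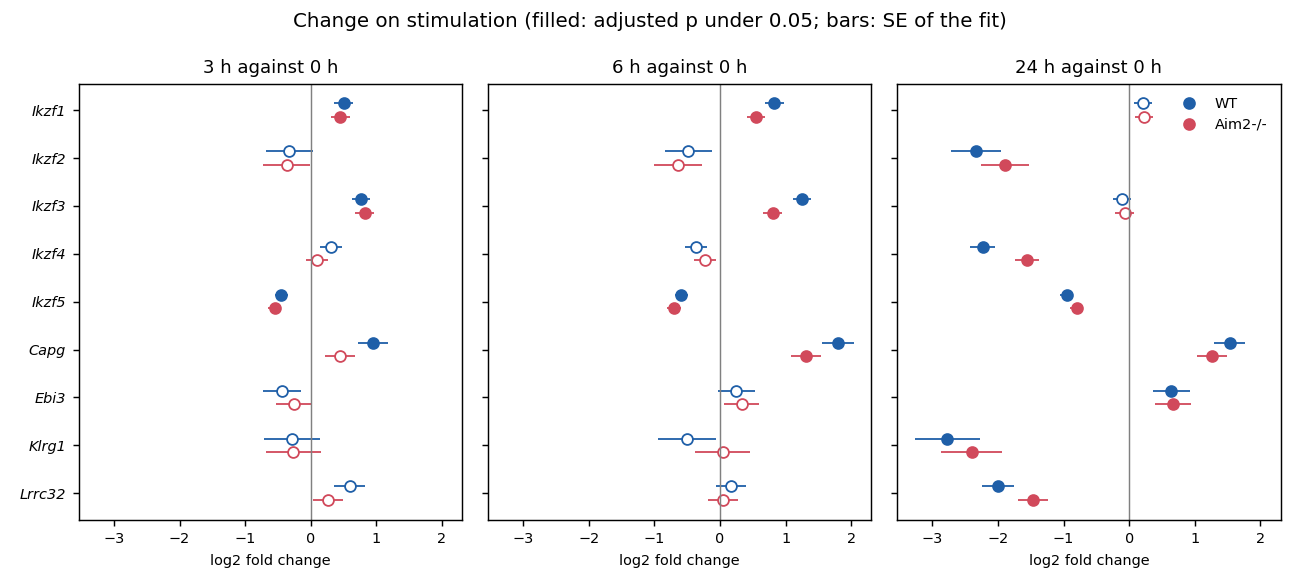
Log2 fold change of each gene at 3, 6 and 24 h against 0 h (horizontal axes), WT in blue and Aim2-/- in red, with bars for the SE of the fit and filled points where the adjusted p was under 0.05. At 24 h the points of Ikzf2, Ikzf4, Ikzf5, Klrg1 and Lrrc32 lie below 0 and those of Capg and Ebi3 above 0, all filled, in both genotypes.

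Ikzf1 (chr11:11685003-11772926 of GRCm38, plus strand) encodes Ikaros, the founding member of the family. In WT mice 1, 3 and 4, Ikzf1 lay at 525, 549 and 544 CPM at 0 h, 642, 879 and 768 at 3 h, 882, 1017 and 976 at 6 h and 637, 641 and 595 at 24 h. In Aim2-/- mice 1, 2 and 4 it lay at 410.1, 483 and 488 CPM at 0 h, 513, 661 and 705 at 3 h, 543, 782 and 699.99 at 6 h and 499, 614 and 512 at 24 h. In WT cells the 6 h libraries were highest, the 3 h libraries came next, then the 24 h libraries, and the 0 h libraries were lowest, with no overlap between neighbouring times, whereas in Aim2-/- cells only the 0 h libraries were set apart and the 3, 6 and 24 h libraries overlapped. Ikzf1 rose by 3 h, with a log2 fold change 0.50 in WT cells (adjusted p = 0.00731) and 0.45 in Aim2-/- cells (adjusted p = 0.0173). By 6 h it stood higher in both genotypes (0.83, adjusted p = 3.3e-05 in WT and 0.55, adjusted p = 0.00203 in Aim2-/- cells). From 6 to 24 h it fell in WT cells (log2 fold change -0.62, SE 0.14, adjusted p = 0.00064), and in Aim2-/- cells the change was -0.32, adjusted p = 0.0561. Its level at 24 h exceeded that at 0 h in 6 of 6 mice, by 0.07 to 0.35 on the log2 scale, with fitted values of 0.21, adjusted p = 0.172 in WT and 0.23, adjusted p = 0.132 in Aim2-/- cells. With mouse as a block, 4 further changes of Ikzf1 were called, those at 24 h against 0 h in WT (0.21, adjusted p = 0.0341) and Aim2-/- cells (0.24, adjusted p = 0.0207), at 6 h against 3 h in WT cells (0.33, adjusted p = 0.00504) and at 24 h against 6 h in Aim2-/- cells (-0.31, adjusted p = 0.00497). The call at 3 h was lost in WT cells without WT 3 (0.39, adjusted p = 0.169) or WT 4 (0.47, adjusted p = 0.0947), and in Aim2-/- cells without Aim2-/- 2 (0.44, adjusted p = 0.055), Aim2-/- 4 (0.39, adjusted p = 0.139) or WT 4 (0.44, adjusted p = 0.0513). Without Aim2-/- 1, the changes from 3 to 6 h in WT (0.33, adjusted p = 0.0242) and from 6 to 24 h in Aim2-/- cells (-0.40, adjusted p = 0.0147) were called.

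Ikzf3 (chr11:98464902-98546031, minus strand) encodes Aiolos, a close relative of Ikaros that is prominent in B cells and in activated T cells. WT mice 1, 3 and 4 had Ikzf3 at 202, 145 and 166 CPM at 0 h, 271, 281 and 318 at 3 h, 443, 381 and 396 at 6 h and 149, 153 and 174 at 24 h. Aim2-/- mice 1, 2 and 4 had it at 163, 161 and 161 CPM at 0 h, 219, 317 and 317 at 3 h, 248, 319 and 274 at 6 h and 138, 174 and 151 at 24 h. The WT libraries stood in 3 separate tiers, 6 h above 3 h above the overlapping 0 and 24 h libraries, and in Aim2-/- cells the 3 and 6 h libraries overlapped each other above the 0 and 24 h libraries. Ikzf3 rose by 3 h, with a log2 fold change 0.76 in WT cells (adjusted p = 0.00021) and 0.82 in Aim2-/- cells (adjusted p = 0.00014). At 6 h the rise over 0 h was 1.25 (SE 0.14, adjusted p = 2e-07) in WT cells and 0.80 (SE 0.14, adjusted p = 6.4e-05) in Aim2-/- cells. The step from 3 to 6 h was called in WT cells (0.49, adjusted p = 0.012) and was -0.02, adjusted p = 0.937 in Aim2-/- cells. By 24 h the gene had fallen again from its 6 h level by 1.36 in WT (adjusted p = 6.4e-08) and by 0.86 in Aim2-/- cells (adjusted p = 2.6e-05) on the log2 scale, and its differences from 0 h were -0.11, adjusted p = 0.499 and -0.07, adjusted p = 0.677. The WT step from 3 to 6 h lost its call without WT 1 (0.38, adjusted p = 0.118), WT 3 (0.49, adjusted p = 0.0937) or WT 4 (0.58, adjusted p = 0.0575).

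Ikzf2 (chr1:69531214-69687245, minus strand) encodes Helios, which most Treg that arise in the thymus carry. The WT libraries (mice 1, 3 and 4) held Ikzf2 at 250.1, 122 and 163 CPM at 0 h, 176, 102 and 147 at 3 h, 186, 87.8 and 111 at 6 h and 52.8, 23.8 and 28.9 at 24 h. The Aim2-/- libraries (mice 1, 2 and 4) held it at 303, 221 and 198 CPM at 0 h, 239, 168 and 151 at 3 h, 191, 151 and 124 at 6 h and 106, 41.1 and 48.4 at 24 h. At each time the 3 libraries of a genotype spread widely, WT 1 being the highest WT library and Aim2-/- 1 the highest Aim2-/- library throughout, and only the 24 h libraries were set apart from all earlier ones. Ikzf2 fell by 24 h, with a log2 fold change -2.34 in WT cells (adjusted p = 1.4e-05) and -1.89 in Aim2-/- cells (adjusted p = 0.00014). In bulk RNA, fewer cells of a type and less RNA per cell cannot be told apart, here and for the other Treg markers. The level was below that at 0 h in 6 of 6 mice at 3, 6 and 24 h, while the fitted changes at 3 h (-0.33, adjusted p = 0.529 in WT and -0.37, adjusted p = 0.483 in Aim2-/- cells) and 6 h (-0.48, adjusted p = 0.289 and -0.64, adjusted p = 0.151) were not called. With mouse as a block, which removes the differences between animals, the changes were called at 6 h in WT (-0.49, adjusted p = 0.00249) and at 3 h (-0.38, adjusted p = 0.02) and 6 h (-0.63, adjusted p = 0.000213) in Aim2-/- cells. From 6 to 24 h Ikzf2 fell by 1.87 in WT (adjusted p = 0.00027) and by 1.25 in Aim2-/- cells (adjusted p = 0.00699), the latter not called without Aim2-/- 2 (-1.03, adjusted p = 0.0811).

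Ikzf4 (chr10:128630843-128645991, minus strand) encodes Eos, a partner of FOXP3 in gene silencing. Levels of Ikzf4 in WT mice 1, 3 and 4 were 96.1, 94.7 and 90.8 CPM at 0 h, 102, 102 and 145 at 3 h, 75.4, 62.7 and 79.7 at 6 h and 22.04, 15.8 and 22.2 at 24 h. Those in Aim2-/- mice 1, 2 and 4 were 109.9, 81.99 and 83.5 CPM at 0 h, 106, 106 and 80.4 at 3 h, 87.1, 80.8 and 66.7 at 6 h and 38.7, 25.6 and 28.9 at 24 h. In WT cells the times were separate, in the order 3, 0, 6 and 24 h, and in Aim2-/- cells the 0, 3 and 6 h libraries overlapped and the 24 h libraries lay below them. Ikzf4 fell by 24 h, with a log2 fold change -2.23 in WT cells (adjusted p = 6.8e-10) and -1.56 in Aim2-/- cells (adjusted p = 1.2e-07), the SE being 0.19 and 0.18. In WT cells a fall from 3 to 6 h was also called (log2 fold change -0.68, SE 0.17, adjusted p = 0.00608). From 6 to 24 h the fall was -1.86 (adjusted p = 3.4e-08) in WT and -1.33 (adjusted p = 3e-06) in Aim2-/- cells. With mouse as a block, calls were added in WT cells at 3 h (0.29, adjusted p = 0.0433) and 6 h (-0.38, adjusted p = 0.00665, and -0.37, adjusted p = 0.0498 without Aim2-/- 1) against 0 h, and in Aim2-/- cells from 3 to 6 h (-0.32, adjusted p = 0.0339). The WT fall from 3 to 6 h was not called without WT 4 (-0.56, adjusted p = 0.0847), whose 3 h library was the highest of the group.

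Ikzf5 (chr7:131388652-131410521, minus strand) encodes Pegasus, the most divergent member of the family. For WT mice 1, 3 and 4, Ikzf5 was measured at 34.9, 38.8 and 40.01 CPM at 0 h, 25.6, 27.2 and 30.7 at 3 h, 22.97, 24.8 and 27.6 at 6 h and 20.1, 19.9 and 18.7 at 24 h. For Aim2-/- mice 1, 2 and 4 it was measured at 37.2, 34.3 and 33.97 CPM at 0 h, 23.1, 26.8 and 22.1 at 3 h, 22.1, 21.7 and 20.9 at 6 h and 19.03, 21.9 and 19.7 at 24 h. The replicates lay close together, the 0 h libraries were above all later ones, and neighbouring times overlapped between 3 and 6 h in WT and between 6 and 24 h in Aim2-/- cells. Ikzf5 fell relative to 0 h at each time in both genotypes. At 3 h this was a log2 fold change -0.45 in WT cells (adjusted p = 0.00124) and -0.55 in Aim2-/- cells (adjusted p = 0.00021). At 6 h the values were -0.59, adjusted p = 3e-05 and -0.70, adjusted p = 4.7e-06, and at 24 h -0.95, adjusted p = 2.2e-08 (SE 0.10) and -0.80, adjusted p = 3.3e-07 (SE 0.10). From 3 to 6 h the change was -0.15 in WT (adjusted p = 0.303) and -0.15 in Aim2-/- cells (adjusted p = 0.286). A further fall from 6 to 24 h was called in WT cells (-0.36, adjusted p = 0.00397), though not without WT 4 (-0.27, adjusted p = 0.0846), and was -0.09, adjusted p = 0.44 in Aim2-/- cells. Exons of Pstk on the other strand overlap those of Ikzf5 and had 9.46 to 21.5 CPM, and since it is not stated whether counting used the strand, reads of these 2 genes cannot be told apart where they overlap.

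The balance within the family shifted with time, as seen in the plot of shares. Per kilobase of exon, Ikzf1 made up 62.1% ± 4.104 (SD, n = 3) of the summed level of the 5 genes at 0 h in WT cells and 79.5% ± 1.72 at 24 h, and in Aim2-/- cells 56.8% ± 5.45 and 74.5% ± 2.91. The share of Ikzf2 went from 10.1% ± 3.25 to 2.22% ± 0.932 in WT cells, and the corresponding Aim2-/- values were 14.8% ± 3.36 and 4.54% ± 2.63. Ikzf4 made up 10.4% ± 0.435 at 0 h and 2.46% ± 0.464 at 24 h in WT cells, against 10.9% ± 1.85 and 4.17% ± 1.12 without Aim2. For each of these 3 genes the ranges at 0 and 24 h did not overlap in either genotype. Ikzf3 held its largest share at 6 h in WT cells (19.4% ± 1.84) and at 3 h in Aim2-/- cells (18.2% ± 1.85), and Ikzf5 its largest at 0 h (4.41% ± 0.471 and 4.38% ± 0.213). The summed level was 151 CPM per kb at 0 h, 239.9 at 6 h and 136 at 24 h in WT cells, and 140.3, 179 and 126 CPM per kb in Aim2-/- cells. Shares were described without a test.

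**Figure D3:**
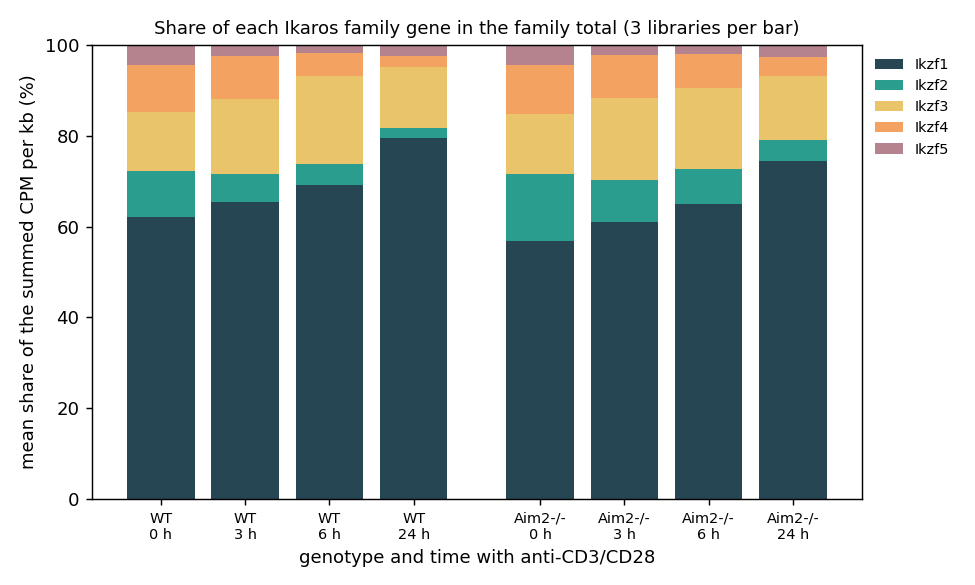
Mean share of each Ikaros family gene in the summed CPM per kb of the 5 genes, in percent (vertical axis), for each genotype and time, with 3 libraries behind each bar and no error bars drawn. The share of Ikzf1 grows from 62.1% to 79.5% in WT cells and, in Aim2-/- cells, from 56.8% to 74.5%, while those of Ikzf2 and Ikzf4 shrink.

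The complexes through which Ikaros proteins act were read from 16 genes of the NuRD, Sin3 and CtBP co-repressor complexes, all tested. At 24 h in WT cells 9 rose and 5 fell, with a median log2 fold change of 0.36 against -0.01 over all genes, and in Aim2-/- cells 9 rose and 3 fell, with a median of 0.24 against 0.03. For this list and those that follow, 36.6% of all genes rose and 34.8% fell by 24 h in WT cells, and 36.8% and 33.5% in Aim2-/- cells. The largest changes in WT cells were those of Rbbp7, a histone-binding subunit (1.81, adjusted p = 2e-10), Mbd3, a methyl-CpG-binding domain protein of NuRD (1.79, adjusted p = 8e-12), the histone deacetylase Hdac2 (1.43, adjusted p = 9.3e-10) and Mta1, a scaffold of NuRD (1.22, adjusted p = 8.9e-11). All 4 also rose in Aim2-/- cells, by 1.41, 1.68, 1.57 and 1.17. The cereblon ubiquitin ligase, to which the thalidomide group of drugs recruits Ikaros and Aiolos for breakdown in human cells, was read from 5 genes. In WT cells at 24 h 3 rose and 1 fell. Crbn, its substrate receptor, fell from 216 ± 20.5 CPM at 0 h to 30.9 ± 1.83 CPM at 24 h in WT cells (log2 fold change -2.80, SE 0.16, adjusted p = 3.3e-12) and from 245 ± 25.99 to 32.1 ± 4.52 CPM in Aim2-/- cells (log2 fold change -2.93, SE 0.16, adjusted p = 2.9e-12). The subunits Rbx1 (0.70), Ddb1 (0.48) and Cul4a (0.23) rose in WT cells. In Aim2-/- cells Rbx1 (1.11) and Cul4a (0.38) rose as well, and Crbn was the 1 gene of the 5 that fell in either genotype.

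Among the Treg markers, Lrrc32 (chr7:98489283-98502181, plus strand) encodes GARP, which holds latent TGF-beta on the surface of activated Treg. Lrrc32 in WT mice 1, 3 and 4 stood at 115, 144 and 179.6 CPM at 0 h, 187, 199 and 273 at 3 h, 159.8, 147 and 185 at 6 h and 39.01, 29.3 and 41.6 at 24 h. The gene stood in Aim2-/- mice 1, 2 and 4 at 175, 158 and 174 CPM at 0 h, 214, 177 and 215 at 3 h, 181, 176 and 167 at 6 h and 94.3, 39.04 and 50.995 at 24 h. In WT cells the 3 h libraries were above all others and in both genotypes the 24 h libraries were below all others, the Aim2-/- 1 library being the highest at 24 h. Lrrc32 fell by 24 h, with a log2 fold change -2.00 in WT cells (adjusted p = 1.6e-07) and -1.46 in Aim2-/- cells (adjusted p = 1e-05). The fall from 6 to 24 h was -2.16 (SE 0.24, adjusted p = 1.5e-07) in WT and -1.51 (SE 0.23, adjusted p = 1.5e-05) in Aim2-/- cells. At 3 h all 6 mice had more Lrrc32 than at 0 h, with fitted values of 0.59, adjusted p = 0.0526 in WT and 0.26, adjusted p = 0.436 in Aim2-/- cells, and the WT value was called with mouse as a block (0.58, adjusted p = 0.00516), without Aim2-/- 1 (0.59, adjusted p = 0.0145) or without Aim2-/- 2 (0.59, adjusted p = 0.0332), and also with DESeq2 (0.56, adjusted p = 0.0376) and voom (0.59, adjusted p = 0.0413). Of 5 genes of the TGF-beta pathway around GARP, 1 rose and 4 fell by 24 h in WT cells and 0 rose and 4 fell in Aim2-/- cells, with medians of -0.93 against -0.01 and -0.79 against 0.03 over all genes. The WT falls were those of Itgb8 (-3.34, adjusted p = 1.2e-06) and Itgav (-1.88, adjusted p = 6.5e-08), whose integrin releases active TGF-beta, of the protease gene Furin (-0.93, adjusted p = 8.7e-05) and of Tgfb1 itself (-0.48, adjusted p = 0.00011). The gene that rose was Nrros, a relative of GARP (0.35). The same 4 genes fell in Aim2-/- cells, by 2.69, 2.41, 0.79 and 0.66 on the log2 scale.

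Klrg1 (chr6:122270596-122282882, minus strand) encodes an inhibitory receptor for cadherins that is found on differentiated Treg and effector T cells and on NK cells. WT mice 1, 3 and 4 showed Klrg1 at 6.701, 3.26 and 4.46 CPM at 0 h, 4.63, 2.98 and 4.16 at 3 h, 3.02, 3.46 and 3.75 at 6 h and 0.811, 0.463 and 0.821 at 24 h. Aim2-/- mice 1, 2 and 4 showed it at 11.9, 6.75 and 8.12 CPM at 0 h, 10.3, 3.81 and 8.19 at 3 h, 12.3, 6.24 and 8.903 at 6 h and 3.33, 0.756 and 0.975 at 24 h. In both genotypes the 0, 3 and 6 h libraries overlapped, and the 24 h libraries lay below them, the lowest at 0.463 CPM, which is 9 counts. Klrg1 fell by 24 h, with a log2 fold change -2.77 in WT cells (adjusted p = 4.3e-05) and -2.40 in Aim2-/- cells (adjusted p = 9.6e-05) and SE of 0.50 and 0.46. The fall took place after 6 h, by 2.28 (adjusted p = 0.00056) in WT and 2.43 (adjusted p = 0.00015) in Aim2-/- cells, whereas the changes up to 6 h lay between -0.50 and 0.04 and were not called. Of its 3 cadherin ligands only Cdh1, E-cadherin, passed the filter on low counts. Cdh1 had 3.79 ± 0.639 CPM at 0 h and 0.615 ± 0.208 CPM at 24 h in WT cells and fell by 2.61 (adjusted p = 7.8e-05), and by 1.79 (adjusted p = 0.00108) in Aim2-/- cells. Of 7 NK cell markers, 5 fell by 24 h in WT and 5 in Aim2-/- cells, where 34.8% and 33.5% of all genes fell. Their median log2 fold changes were -2.12 in WT and -1.74 in Aim2-/- cells. The part of NK cells in the fall of Klrg1 was not tested.

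Capg (chr6:72544391-72562983, plus strand) encodes an actin filament capping protein of the gelsolin family, abundant in macrophages and part of published Treg signatures. Across WT mice 1, 3 and 4, Capg lay at 65.3, 54.2 and 66.03 CPM at 0 h, 140.2, 108 and 111 at 3 h, 249, 205 and 191 at 6 h and 237, 138 and 160.3 at 24 h. Across Aim2-/- mice 1, 2 and 4 it lay at 128, 79.4 and 100.3 CPM at 0 h, 155, 114 and 151 at 3 h, 296, 211 and 258 at 6 h and 346, 174 and 218 at 24 h. Every stimulated library was above the unstimulated library of the same mouse, the 6 and 24 h libraries overlapped in both genotypes, and WT 1 and Aim2-/- 1 were the highest libraries of their genotype at 24 h. Capg rose by 6 h, with a log2 fold change 1.80 in WT cells (adjusted p = 1.9e-06) and 1.31 in Aim2-/- cells (adjusted p = 7.8e-05), and stayed higher at 24 h, with a log2 fold change 1.53 in WT cells (adjusted p = 6.5e-06) and 1.26 in Aim2-/- cells (adjusted p = 6.2e-05). At 3 h the rise was called in WT cells (log2 fold change 0.95, SE 0.23, adjusted p = 0.00326) and was 0.45, adjusted p = 0.155 in Aim2-/- cells, where mouse as a block gave 0.47, adjusted p = 0.00174. From 3 to 6 h it rose by 0.84 (adjusted p = 0.00984) in WT and by 0.86 (adjusted p = 0.00984) in Aim2-/- cells, calls that were lost without WT 3 (0.79, adjusted p = 0.0723) or WT 4 (0.87, adjusted p = 0.0701) and without Aim2-/- 4 (0.91, adjusted p = 0.0609). From 6 to 24 h the WT change of -0.27, adjusted p = 0.324 became -0.29, adjusted p = 0.0235 with mouse as a block. Among 9 other genes that cap or sever actin filaments, 1 rose and 5 fell by 24 h in WT cells and 1 rose and 5 fell in Aim2-/- cells. The largest changes in WT cells were the falls of Scin (-1.50, adjusted p = 0.00308), Svil (-0.64, adjusted p = 0.00053) and Flii (-0.59, adjusted p = 0.00012), all of the gelsolin family like Capg, and the rise of the capping protein subunit Capzb (1.25, adjusted p = 3.9e-10). The other WT falls were those of Capza2 and Twf1, and in Aim2-/- cells Gsn fell in place of Scin, whose change there was -0.83, adjusted p = 0.0619.

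Ebi3 (chr17:55952640-55957022, plus strand) encodes the shared subunit of the cytokines IL-27 and IL-35, the latter described as a product of Treg. WT levels of Ebi3 in mice 1, 3 and 4 were 3.05, 2.89 and 2.89 CPM at 0 h, 2.55, 2.27 and 1.68 at 3 h, 3.77, 3.07 and 3.7004 at 6 h and 5.07, 4.57 and 4.16 at 24 h. Aim2-/- levels in mice 1, 2 and 4 were 7.6999, 4.58 and 5.56 CPM at 0 h, 7.01, 3.07 and 4.85 at 3 h, 8.13, 8.04 and 6.26 at 6 h and 12.96, 6.45 and 8.98 at 24 h. In WT cells the 4 times did not overlap, with 24 h highest and 3 h lowest, and in Aim2-/- cells neighbouring times overlapped. Ebi3 rose by 24 h, with a log2 fold change 0.64 in WT cells (adjusted p = 0.0468) and 0.67 in Aim2-/- cells (adjusted p = 0.0332) and SE of 0.28 and 0.27. Relative to 0 h it was lower in 6 of 6 mice at 3 h and higher in 6 of 6 mice at 6 and 24 h, with fitted values at 3 h of -0.44, adjusted p = 0.264 and -0.26, adjusted p = 0.531. With mouse as a block, a rise from 3 to 6 h was called in WT (0.70, adjusted p = 0.0131) and Aim2-/- cells (0.65, adjusted p = 0.00974). It was also called in both without Aim2-/- 1 (0.70, adjusted p = 0.0267 in WT and 0.85, adjusted p = 0.0337 in Aim2-/- cells) and in WT cells without Aim2-/- 2 (0.70, adjusted p = 0.0289). The WT call at 24 h was lost without WT 1 (0.59, adjusted p = 0.174), WT 3 (0.57, adjusted p = 0.185), WT 4 (0.65, adjusted p = 0.122) or Aim2-/- 4 (0.64, adjusted p = 0.0721), and the Aim2-/- call without Aim2-/- 1 (0.60, adjusted p = 0.051), Aim2-/- 4 (0.66, adjusted p = 0.125), WT 1 (0.67, adjusted p = 0.05), WT 3 (0.64, adjusted p = 0.0597) or WT 4 (0.64, adjusted p = 0.0533). The WT call was also lost with DESeq2 (0.59, adjusted p = 0.0613), RLE size factors (0.58, adjusted p = 0.0635), library totals (0.63, adjusted p = 0.0645), voom (0.63, adjusted p = 0.091) and no filter (0.60, adjusted p = 0.0985), and the Aim2-/- call with RLE size factors (0.60, adjusted p = 0.0501) and no filter (0.62, adjusted p = 0.077), so that 5 and 7 of 14 alternatives kept the calls. Of 5 genes for its partner subunits and receptors, 1 rose and 3 fell by 24 h in WT cells and 2 rose and 3 fell in Aim2-/- cells. Il12a, the partner subunit in IL-35, rose by 3.10 (SE 0.62, adjusted p = 0.00013) in WT and by 3.29 (adjusted p = 4.6e-05) in Aim2-/- cells, from 0.525 ± 0.152 and 0.898 ± 0.763 CPM at 0 h. The receptor genes Il6st (-2.01, adjusted p = 4.9e-09), Il12rb2 (-1.54, adjusted p = 0.00087) and Il27ra (-0.61, adjusted p = 2.8e-07) fell in WT cells, and they fell in Aim2-/- cells by 1.91, 1.44 and 0.25.

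A list of 20 other genes linked with Treg, which holds 10 genes the study names as examples from published Treg signatures, was tested in full. At 24 h 6 rose and 9 fell in WT cells, with a median of -0.58 against -0.01 over all genes, and 5 rose and 13 fell in Aim2-/- cells, with a median of -0.95 against 0.03. The members that moved most in WT cells went in different directions. Gzmb, a cytotoxic protease (4.06, adjusted p = 1e-10), and Il2ra, the alpha chain of the IL-2 receptor, which T cells induce on activation (2.94, adjusted p = 8.3e-13), rose. Nt5e, the ectoenzyme CD73 (-3.71, adjusted p = 4.6e-09), and Itgae, the integrin CD103 (-2.95, adjusted p = 7.8e-05), fell. Foxp3, named here for its role and not for its change, lay at 104 ± 17.1, 266 ± 60.5, 233 ± 38.3 and 49.1 ± 14.2 CPM at 0, 3, 6 and 24 h in WT cells. In Aim2-/- cells it lay at 149 ± 19.4, 304 ± 20.04, 313 ± 54.4 and 93.97 ± 45.3 CPM. It rose by 3 h (1.35 in WT, adjusted p = 0.00034, and 1.03 in Aim2-/- cells, adjusted p = 0.00384), and it had fallen below its 0 h level by 24 h (-1.09, adjusted p = 0.00081, and -0.66, adjusted p = 0.026).

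The second question is whether the genotypes differed at a given time. The Treg markers Ebi3, Klrg1 and Capg had higher means in Aim2-/- cells at all 4 times, as did Ikzf2, while Ikzf1 and Ikzf3 had lower means. Lrrc32, the remaining Treg marker, had a lower mean in Aim2-/- cells at 3 h and higher means at the other times. Only the differences of Ebi3 at 0 and 6 h, and of Klrg1, Ikzf1 and Ikzf3 at 6 h, were called. At 0 h, 1 of 9 members was called, where 5.23% of all tested genes were called, at 3 h 0 of 9 (0.294% of all), at 6 h 4 of 9 (15.8% of all) and at 24 h 0 of 9 (0.666% of all). By edgeR at an unadjusted p under 0.05, 3 members passed at 3 h (Ebi3, Klrg1 and Ikzf5) and 5 at 24 h (Ikzf4, Ebi3, Ikzf2, Klrg1 and Lrrc32), and DESeq2 called 1 member at 3 h (Ebi3) and 3 at 24 h (Ebi3, Ikzf4 and Lrrc32), and a fit with no filter on low counts called Ikzf2 as well at 24 h. Without WT 1, 0, 0, 3 and 0 of 9 members were called at 0, 3, 6 and 24 h, where 5.77%, 2.71%, 11.4% and 1.05% of all genes were. Each comparison sets 3 mice against 3, and the 4 times come from the same animals. Aim2 itself was not called at 0, 3, 6 or 24 h with WT 1 included. Its differences were -1.58, -1.43, -1.34 and -2.04 (adjusted p = 0.0794, 0.224, 0.0885 and 0.0784).

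**Figure D4:**
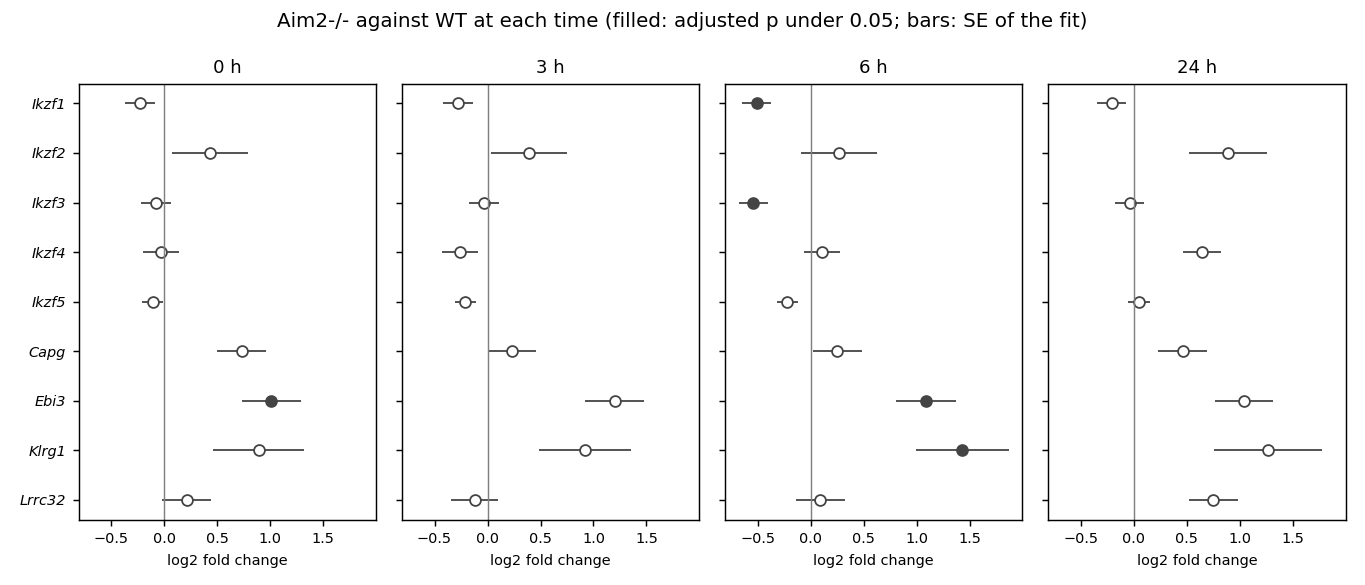
Log2 fold change of each gene in Aim2-/- against WT cells at 0, 3, 6 and 24 h (horizontal axes), with bars for the SE of the fit and filled points where the adjusted p was under 0.05. The filled points are Ebi3 at 0 h, and Ikzf1, Ikzf3, Ebi3 and Klrg1 at 6 h, Ikzf1 and Ikzf3 lying below 0.

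Ebi3 was higher in the 3 Aim2-/- libraries than in the 3 WT libraries at each of the 4 times, with no overlap. Its mean level at 0 h was 5.95 ± 1.595 CPM in Aim2-/- and 2.95 ± 0.0913 CPM in WT cells, and at 24 h 9.46 ± 3.28 and 4.5995 ± 0.455 CPM (SD, n = 3). The difference was called at 0 h (log2 fold change 1.01, SE 0.28, adjusted p = 0.041) and 6 h (log2 fold change 1.09, SE 0.28, adjusted p = 0.0175), and at 3 and 24 h it was 1.20, adjusted p = 0.0724, and 1.04, adjusted p = 0.0691, respectively. Without WT 1, the mouse whose Aim2 counts went against its label, the values in order of time were 1.04, adjusted p = 0.0823, then 1.33, adjusted p = 0.0536, then 1.14, adjusted p = 0.0417, and last 1.11, adjusted p = 0.115. The call at 0 h was also lost without WT 3 (0.96, adjusted p = 0.191), WT 4 (0.97, adjusted p = 0.156), Aim2-/- 1 (0.79, adjusted p = 0.135) or Aim2-/- 4 (1.06, adjusted p = 0.112), and with library totals (1.04, adjusted p = 0.0515) or voom (0.98, adjusted p = 0.0696), and that at 6 h without WT 3 (0.96, adjusted p = 0.114), WT 4 (1.08, adjusted p = 0.0811) or Aim2-/- 4 (1.20, adjusted p = 0.0553). Without Aim2-/- 2 the differences at 3 h (1.45, adjusted p = 0.00466) and 24 h (1.25, adjusted p = 0.00296) were called as well, and without Aim2-/- 1 they were 0.87, adjusted p = 0.242 and 0.74, adjusted p = 0.429.

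Klrg1 was higher in each Aim2-/- library than in any WT library at 0 and 6 h and overlapped at 3 and 24 h. At 6 h, where WT cells had 3.41 ± 0.369 CPM and Aim2-/- cells 9.16 ± 3.06 CPM, the difference was called (log2 fold change 1.43, SE 0.44, adjusted p = 0.035). At the other times it was 0.89, adjusted p = 0.211 (0 h), 0.92, adjusted p = 0.317 (3 h) and 1.27, adjusted p = 0.174 (24 h). The call at 6 h was lost without WT 1 (1.34, adjusted p = 0.0939), WT 3 (1.40, adjusted p = 0.119), WT 4 (1.45, adjusted p = 0.128), Aim2-/- 1 (1.15, adjusted p = 0.0746) or Aim2-/- 4 (1.45, adjusted p = 0.0927), and without Aim2-/- 2 the difference at 24 h was called (1.62, adjusted p = 0.0211). Without Aim2-/- 1 the difference at 24 h was 0.31, adjusted p = 0.875. Without WT 1 the differences at 0, 3 and 24 h were 1.21, 1.06 and 1.39, none called.

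Capg was higher in each Aim2-/- library than in any WT library at 0 h, at 103 ± 24.3 against 61.9 ± 6.62 CPM, with a fitted difference of 0.73, adjusted p = 0.0672 that was called with mouse as a random block (0.71, adjusted p = 0.0293) and without Aim2-/- 2 (0.88, adjusted p = 0.0143). At the later times the libraries of the genotypes overlapped, and the differences in order of time were 0.23, adjusted p = 0.66, then 0.25, adjusted p = 0.466, and last 0.46, adjusted p = 0.258. The last of these was 0.14, adjusted p = 0.883 without Aim2-/- 1, the library with the highest Capg, and was called without Aim2-/- 2 (0.66, adjusted p = 0.0416). At 0 h the value was 0.54, adjusted p = 0.231 without Aim2-/- 1. Without WT 1 the differences of Capg were 0.77, 0.36, 0.37 and 0.72 at the 4 times, none called. Lrrc32 overlapped between the genotypes at all 4 times, and its differences ranged from -0.12 at 3 h to 0.75 at 24 h (adjusted p = 0.105). The value at 24 h was called without Aim2-/- 2 (0.99, adjusted p = 0.00848), and was 0.30, adjusted p = 0.701 without Aim2-/- 1. Without WT 1 the differences of Lrrc32 in order of time were 0.06, -0.22, 0.07 and 0.79, none called.

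Within the Ikaros family, Ikzf1 and Ikzf3 were lower at 6 h in each Aim2-/- library than in any WT library. For Ikzf1 the levels were 675 ± 121 CPM in Aim2-/- and 958 ± 69.3 CPM in WT cells (log2 fold change -0.51, SE 0.14, adjusted p = 0.022), and for Ikzf3 280.4 ± 36.1 and 407 ± 32.8 CPM (log2 fold change -0.54, SE 0.14, adjusted p = 0.0182). Without WT 1 they remained called (-0.57, adjusted p = 0.0293 and -0.47, adjusted p = 0.0474). The calls were lost without WT 3 (-0.50, adjusted p = 0.105 and -0.62, adjusted p = 0.0655), WT 4 (-0.54, adjusted p = 0.0938 and -0.60, adjusted p = 0.0656), Aim2-/- 1 (-0.37, adjusted p = 0.087 and -0.45, adjusted p = 0.0684) or Aim2-/- 4 (-0.54, adjusted p = 0.0677 and -0.52, adjusted p = 0.0762). At 0, 3 and 24 h the differences of Ikzf1 lay between -0.28 and -0.21 and those of Ikzf3 between -0.08 and -0.03, none of them called. Without WT 1 these lay between -0.39 and -0.19 for Ikzf1 and between -0.09 and 0.06 for Ikzf3. Ikzf5 was lower in each Aim2-/- library at 6 h as well, with a difference of -0.22, adjusted p = 0.124, and without WT 1 its differences lay between -0.28 at 6 h and 0.07 at 24 h. Ikzf4 was higher in each Aim2-/- library than in any WT library at 24 h, at 31.1 ± 6.82 against 19.998 ± 3.66 CPM (0.64, adjusted p = 0.0872), a difference that was called without Aim2-/- 2 (0.76, adjusted p = 0.0177) and was 0.45, adjusted p = 0.534 without Aim2-/- 1 and 0.71, adjusted p = 0.121 without WT 1. At 0, 3 and 6 h the differences of Ikzf4 were -0.03, -0.26 and 0.11, and without WT 1 -0.01, -0.34 and 0.13. Ikzf2 overlapped between the genotypes at all 4 times, with differences from 0.27 at 6 h to 0.89 at 24 h (adjusted p = 0.191). These values moved with single mice. Without WT 1, the WT mouse with the most Ikzf2, the differences at 0, 3, 6 and 24 h were 0.75, 0.58, 0.64 and 1.30, none called. Without Aim2-/- 1, the Aim2-/- mouse with the most, they were 0.23, 0.17, 0.10 and 0.34.

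Markers of other cell types differed between the genotypes too. Of all tested genes, 3.24% were called higher at 0 h, 8.78% at 6 h and 0.659% at 24 h. Ebi3 is also made by dendritic cells, macrophages and B cells, Klrg1 by NK cells and Capg by macrophages. The 10 B cell markers summed to 11.1 to 15.9 CPM in WT and 17.97 to 50.9 CPM in Aim2-/- libraries at 0 h, and to 7.84 to 13.2 and 17.9 to 53.4 CPM at 6 h, with 2 of the 8 that were tested, Cd79a and Cd79b, called higher at each of these times. The 10 myeloid markers summed to 196 to 232 against 285 to 607 CPM at 0 h (Lyz2, Cd14 and Mpeg1, 3 of 10, called higher) and 187 to 231 against 251 to 403 CPM at 6 h (Clec4n and Fcgr3, 2 of 10). In both lists Aim2-/- 1 was the highest library at all 4 times. The 8 dendritic cell markers summed to 19.1 to 25.6 against 27.7 to 70.8 CPM at 0 h (1 of 7 tested, Zbtb46, called higher) and 15.8 to 22.6 against 25.9 to 43.8 CPM at 6 h (0 of 7). The 7 NK cell markers summed to 39.4 to 58.7 against 107 to 125 CPM at 0 h (1 of 7, Eomes) and 46.5 to 60.4 against 80.4 to 94.05 CPM at 6 h (0 of 7). Most of the NK sum came from Eomes and most of the myeloid sum in WT cells from Ctss. Over the 12 libraries of a genotype, the median level was higher in Aim2-/- than in WT libraries for 7 of 7 NK markers, from 0.657 against 0.225 CPM (Klra4) and 0.926 against 0.845 CPM (Ncr1) to 68.04 against 28.2 CPM (Eomes). Pax5 among the B cell markers, Xcr1 among the dendritic cell markers and Cd8b1 had lower such medians in Aim2-/- libraries. The median log2 difference at 0 h was 1.81 for the B cell, 1.71 for the myeloid and 1.66 for the dendritic cell markers. It was 0.70 for the NK cell, 2.65 for the erythroid and 1.57 for the platelet markers, and 0.63 for the 2 Cd8 genes. The 6 erythroid markers summed to 7.71 to 71.8 against 21.1 to 337 CPM and the 6 platelet markers to 103 to 128 against 125 to 143 CPM at 0 h, with 0 of 6 and 1 of 5 tested genes (Gp9) called higher. At 6 h the platelet sums were 145 to 193 against 152 to 197 CPM, and 3 of 5 tested platelet genes (Pf4, Gp9 and Itga2b) were called higher at 6 h and at 24 h, while 0 of 6 erythroid genes were. Itgb3, the platelet marker with the highest level, went the other way, with medians over the 12 libraries of 124 CPM in WT and 104 CPM in Aim2-/- cells. The part of these cells in the differences between the genotypes was not tested. Without Aim2-/- 1, Ebi3 differed by 0.79, adjusted p = 0.135 at 0 h and remained called at 6 h (1.03, adjusted p = 0.0404). Leaving out that mouse does not test the part of other cells. The other Aim2-/- libraries also lay above all WT libraries in the B cell, myeloid, dendritic cell and NK cell sums at 0 and 6 h.

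**Figure D5:**
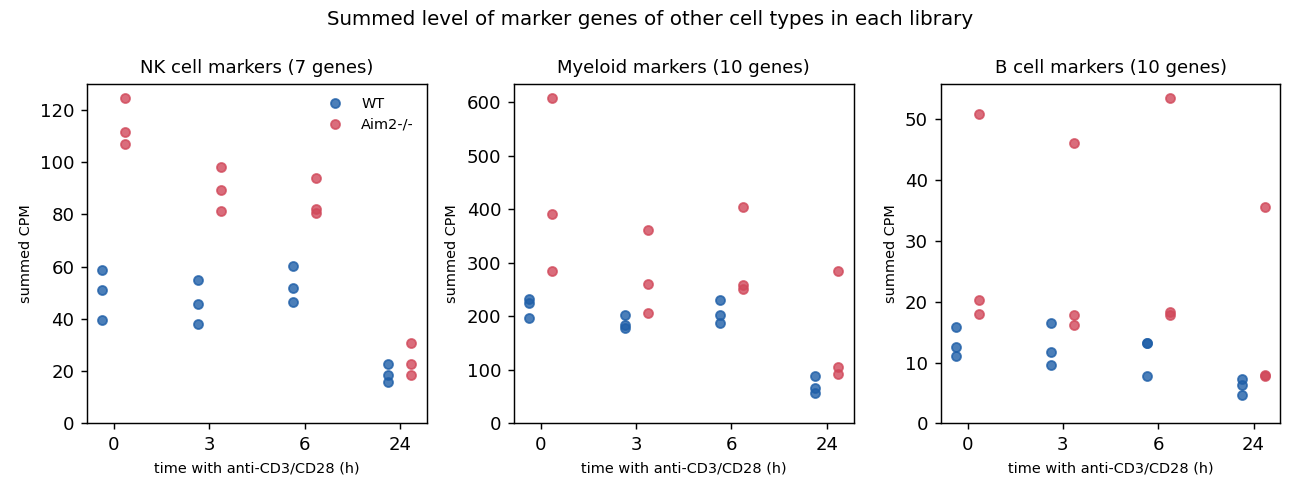
Summed CPM of the NK cell, myeloid and B cell marker lists in each library (vertical axes, starting at 0) against time in hours, WT in blue and Aim2-/- in red, a point for each library. At 0 h the Aim2-/- libraries lie above the WT libraries in all 3 lists, and a single Aim2-/- library, that of mouse 1, is the highest in the myeloid and B cell lists at each time.

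Of the 20 other Treg genes, 6 were called higher and 0 lower in Aim2-/- cells at 0 h, 0 and 0 at 3 h, 4 and 1 at 6 h, and 1 and 0 at 24 h, where 3.24%, 0.254%, 8.78% and 0.659% of all genes were called higher. Their median difference was 0.77 against -0.01 over all genes at 0 h and 0.46 against 0.01 at 24 h. Foxp3 itself differed at 0 h by 0.51, adjusted p = 0.228, and at 24 h by 0.94, adjusted p = 0.0784. The genes called, named here after their values were seen, were at 0 h Penk, which encodes an opioid precursor (1.83), the receptors Tnfrsf9 (1.10), Pdcd1 (1.04), Tigit (0.81) and Tnfrsf4 (0.78), and Il2rb (0.55). At 6 h they were Penk (1.77), Tigit (0.71), Tnfrsf4 (0.62) and Tnfrsf18 (0.48), and at 24 h Penk (1.75). Il2ra was the gene called lower at 6 h (-0.50, adjusted p = 0.0286). Of the 16 co-repressor genes 1 was called higher and 2 lower at 6 h, where 8.78% of all genes were called higher and 7.01% lower (Hdac1, 0.34, against Chd4, -0.49, and Gatad2b, -0.36) and 0 at the other times, and of the 5 genes of the cereblon ligase 0 were called at any time. Of the partners of Ebi3, Il27ra was called lower at 0 h (-0.29, adjusted p = 0.0301) and Il6st at 6 h (-0.77, adjusted p = 0.0145). The partners of GARP and Cdh1 gave 0 calls between the genotypes, and of the actin capping genes Scin was called higher at 6 h (1.18, adjusted p = 0.0462) and 24 h (1.84, adjusted p = 0.0448).

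The third question is whether the response to stimulation itself differed between the genotypes, which the interaction of genotype and time tests directly. At 3, 6 and 24 h, 0 of 9 members were called, where 0.0%, 0.0261% and 0.0% of all tested genes were. By edgeR at an unadjusted p under 0.05, 0 members passed at 3 h, 1 at 6 h (Ikzf3) and 1 at 24 h (Ikzf4), and DESeq2 called 0 at each time. Without WT 1, 0 of 9 were called at each time, where 0.0%, 0.0511% and 0.102% of all genes were. For Ikzf3 at 6 h the interaction was -0.46, meaning a smaller fitted rise in Aim2-/- cells (SE 0.20, adjusted p = 0.309). The value of Ikzf4 at 24 h was 0.67 (SE 0.25, adjusted p = 0.291), meaning a smaller fitted fall in Aim2-/- cells, and with mouse as a block it was called (0.68, adjusted p = 0.0346), when 2.77% of all genes were. For Lrrc32 at 24 h the interaction was 0.54, adjusted p = 0.529, and for Ebi3 it lay between 0.03 and 0.19 over the 3 times. Without WT 1 the values were -0.53 for Ikzf3, 0.73 for Ikzf4 and 0.73 for Lrrc32, and without Aim2-/- 1 that of Lrrc32 was 0.11.

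The members were also described by how alike their profiles were over the 24 libraries, using Pearson's r of log2 CPM. These libraries share mice and times, so r is given without a p. It reads the time course together with differences between genotypes and mice. Ikzf4 and Lrrc32 were most alike (0.96), and Ikzf2 followed Klrg1 (0.92), Ikzf4 (0.90) and Lrrc32 (0.86). Ikzf1 and Ikzf3 went together at 0.82, and Ikzf5 and Capg ran opposite at -0.83. Ikzf1 and Ikzf2 had r of -0.20. Among tested genes that carry a name and have a mean of at least 10 CPM, the closest to Ikzf1 were Pknox1 (0.96) and Bach2 (0.95), to Ikzf2 Maf (0.98) and Itgb8 (0.98), and to Ikzf3 Camk2d (0.95) and Rnf149 (0.95). The closest to Ikzf4 were Lgals8 (0.98) and H2-K2 (0.98), and to Ikzf5 Grap2 (0.97) and Aff4 (0.97). For the Treg markers they were Npas4 (0.95) and St6galnac6 (0.95) for Capg, Fgl2 (0.97) and Mir22hg (0.96) for Klrg1, and Mvp (0.97) and Tdrd7 (0.97) for Lrrc32. The closest to Ebi3 were H2-Eb1 (0.94) and H2-Ab1 (0.93), genes of MHC class II, which antigen-presenting cells carry.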

How the data were processed

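Poly(A) RNA of splenic CD4+ T cells was sequenced from stranded libraries. The authors used STAR and GRCm38, and the deposited values are raw counts of reads for 54446 Ensembl genes. Whether counting used the strand is not stated, so overlapping genes are uncertain. Exons of Ikzf2, Ikzf4 and Ebi3 overlap those of antisense or non-coding genes with at most 0.587 CPM. Symbols, positions and exon lengths came from GENCODE M21 of the same build, which matched 54409 identifiers.

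Counts were tested with edgeR 4.0.16 in R 4.3.3 (quasi-likelihood F test, two-sided, 1 mean per group over all 24 libraries, TMM factors, filterByExpr with a minimum count of 10), with Benjamini-Hochberg adjustment over the 15325 tested genes within each comparison. The common dispersion was 0.0346. CPM uses TMM-scaled library sizes, and log2 CPM a prior count of 2. Voom (limma 3.58.1), which the paper describes for RSEM values in its work on naive T cells and Treg cultures, and DESeq2 1.42.0 served as alternatives. Further alternatives were other size factors, other filters, blocks of mouse and each mouse left out in turn. The processing notes of the present samples name edgeR and DESeq2. The code was tested on simulated counts.

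The members and lists were chosen with earlier results of these data known. Genes of a list are named when they are among the 4 largest called changes at 24 h in WT cells, and the 2 genes most like each member by r over 24 libraries are named. Others are given with a reason or were chosen after their values were seen. The libraries of a mouse pair by the labels: the 36 pairs of libraries from 1 mouse deviated from their group means together, with r from 0.139 to 0.567, and the 72 pairs from different mice with r from -0.432 to 0.0742. Deviations from a group mean cancel out within the group, so the second range is tied to the first and is not separate evidence. P-values rest on a spread between libraries that is pooled over the 8 groups of 3. The main fit has no term for mouse and treats the libraries of a mouse as independent. Leaving out a mouse of a genotype can therefore change calls in the other. Limits of detection (3 counts) cover counting error only. Promoter windows came from RefSeq.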

Additional observations from a re-analysis of the deposited data

How the results depend on the processing

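No called value of a member reversed its direction under any alternative run, and 49 values that were called in neither fit changed sign. Of the member tests repeated under alternatives, 1989 stayed on their side of the threshold, 64 gained a call and 53 lost one. Of the group means, 348 moved by less than 1 SD and 12 by more, all of the latter under other size factors. Leaving out 1 of 3 libraries cannot move a mean by 1 SD of those 3. These counts therefore do not show whether the means are stable to the loss of a mouse. The counts of members called stayed within 1.5 times of those reported in 202 cases and moved in 32. With mouse as a block, 5 members were called in WT cells at 6 h against 3 h by either block, 5 (fixed block) in Aim2-/- cells at 3 h, 2 (random block) or 3 (fixed block) in Aim2-/- cells at 6 h against 3 h, 2 in Aim2-/- against WT at 0 h (random block), and 1 in the interaction at 24 h (fixed block). The blocks changed no call other than those given with their gene above. In Aim2-/- against WT cells, DESeq2 called 2 members at 0 h, 1 at 3 h and 3 at 24 h, no filter on low counts gave 2, 1 and 4, and both voom and library totals gave 0 at 0 h. Leaving out each mouse in turn gave 0 to 5 members in WT cells at 6 h against 3 h, 0 to 2 in Aim2-/- cells at 6 h against 3 h, and in Aim2-/- against WT 0 to 2 at 0 h, 0 to 1 at 3 h, 0 to 4 at 6 h and 0 to 5 at 24 h, the largest of these without Aim2-/- 2. Over all genes the number called ranged, in Aim2-/- against WT, from 30 to 2139 (reported 802) at 0 h, from 1 to 1143 (reported 45) at 3 h, from 95 to 4020 (reported 2421) at 6 h and from 0 to 2702 (reported 102) at 24 h, and, for 3 h against 0 h, from 2936 to 6550 (reported 4992) in WT and from 2803 to 6307 (reported 4698) in Aim2-/- cells, and, for 6 h against 3 h, from 1538 to 5537 (reported 3945) and from 2171 to 5438 (reported 3571). The interactions ranged from 0 to 9 (reported 0) at 3 h, from 0 to 717 (reported 4) at 6 h and from 0 to 424 (reported 0) at 24 h. With library totals in place of TMM the median of all genes moved by over 0.1, to 0.20 at 6 h in Aim2-/- cells and -0.14 from 6 to 24 h in WT cells at the extremes, and changes of members are to be read relative to it. The fixed block of mouse could not be fitted for differences between genotypes, since each mouse has 1 genotype. Depth limits Klrg1 and Ebi3 most, both under 15 CPM in all libraries.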

Other observations

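Il27, the partner subunit of Ebi3 in IL-27, was singled out after its values were seen, since it is not among the genes the naming rule selects. In WT mice 1, 3 and 4 it had 1, 0 and 1 counts at 0 h, 3, 1 and 0 at 3 h, 4, 4 and 0 at 6 h and 6, 2 and 0 at 24 h. In Aim2-/- mice 1, 2 and 4 it had 1, 2 and 0 counts at 0 h, 20, 14 and 14 at 3 h, 13, 7 and 8 at 6 h and 11, 3 and 4 at 24 h. The 3 h libraries of the genotypes did not overlap, and the difference between them was not called (edgeR's adjusted p = 0.0884). Within Aim2-/- cells the rise over 0 h was called at 3 h (adjusted p = 0.00388), and the interaction at 3 h was not (adjusted p = 1.00). No fold is given, because the WT libraries at 0 and 3 h and the Aim2-/- libraries at 0 h lay at or under 3 counts. Myeloid markers, which were higher in Aim2-/- libraries, mark cells that are known to make IL-27, and their part in these counts was not tested.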
